A study of Populus tomentosa with 4 samples.

Results

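Among the loci that microRNAs of Chinese white poplar (Populus tomentosa) were predicted to target, 145 were described as disease resistance proteins and were not predicted for any name of the miR482 family, out of 10305 predicted loci in all. They were taken from the authors' deposited table of predicted targets as every locus whose Swiss-Prot description contains the words "disease resistance" and for which no name beginning with ptc-miR482 is listed. In all, 288 loci carried such a description, and the other 143 were listed for miR482. Small RNA libraries were made from leaves and from the shoot tips they surround (SAM in the labels), with 2 libraries of each tissue from trees 20 years old that grew outdoors; no genotype or treatment is named. The table gives 1 value per tissue for each microRNA name, and separate trees are not named for the 2 libraries behind it, so the authors' adjusted p (FDR) may measure technical spread. No value per library was given, so values carry no SD, and the depth behind them is not stated. No messenger RNA was measured, so the loci themselves have no level here and the tissue labels could not be checked against marker genes. In whole tissues, fewer cells that make a microRNA and less of it per cell cannot be told apart.

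Most plant disease resistance proteins are receptors inside the cell with a nucleotide-binding domain and leucine-rich repeats (NLR proteins). They sense pathogen effectors and start a defence that can end in the death of the cell. Their first domain is a coiled coil, a TIR domain or an RPW8 domain, and receptors of the last kind act as helpers for others. Plant microRNAs lead a silencing complex to transcripts that match them, and the miR482 family is known for its match to the sequence that encodes the nucleotide-binding loop of many NLR genes. Some microRNAs of 22 nt also start the production of secondary small RNAs from the transcripts they cut.

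The 13 mature sequences that were each predicted for at least 5 of the 145 loci are shown as the table spells them, 5' to 3', with bases 2 to 8, the seed, in capitals, because together they account for 85 of the loci (58.6%). Names lack the table's leading prefix. A name made of m, a number and an arm is a running number with no family, and such sequences are called numbered here. Where several names share a sequence, the first name is used. The table writes numbered sequences with T and sequences of known families with U.
m1403-5p: cTCTTCTCtgataatatgctg
m2460-5p: tAGATGATctagtggtaagaattt
miR403a: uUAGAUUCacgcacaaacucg
m2352-3p: tCAGGCAGtgttttgaactcg
m1831-5p: tGGATCTGgcagtcatgtcaaacc
miR1444b: uUCACAUUcggucaacguuc
miR159a: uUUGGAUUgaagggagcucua
miR6457b: uUAGUUUGgcagccucuucuc
m0129-5p: tGGACTTCcattagctcttcg
m0793-5p: tTGATGGCtgctcaaaacttg
m0911-3p: aTTCTCATgtgggctagttaagtg
m1792-3p: tAGATACGggtgattgttgtg
miR6421-5p: uCCCUUACaaucuacucuuuc

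No 2 of these 13 share a seed. Over all 75 sequences predicted for any of the 145 loci there were 70 seeds, of which 5 were shared by a pair of sequences each. They were the pairs miR169t and miR169ae, miR398a and miR398b, miR396f and miR396g-5p, miR159a and miR159d, and m1831-5p and m1702-3p. The last pair is shown because its sequences are numbered and differ at few bases.
m1702-3p: tGGATCTGgtagccatgtcaaacc
Relative to m1702-3p, the sequence of m1831-5p carries T10C and C13T, with positions counted from 1 at the 5' end. They were predicted for 107 and 109 loci in all and shared 51 of these (47.7% and 46.8%), but they shared only 1 of the 4 and 9 resistance loci outside miR482 that each was predicted for.

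Of 107 distinct sequences in the authors' deposited table, 75 were predicted for at least 1 of the 145 loci. They comprised 36 sequences of known families and 39 numbered ones. In all, 29 sequences were predicted for a single locus of the 145, 33 for 2 to 4 of them and 13 for 5 or more. Each of the 75 was predicted for 60 to 181 loci of any kind, with a median of 141. The 145 loci made up 1.41% of all predicted loci, and their median share among the loci of a sequence was 1.43% over these 75 and 1.02% over all 107. The share was 9.92% for m2460-5p (12 of 121 loci), 8.51% for miR403a (12 of 141), 8.26% for m1831-5p (9 of 109), 6.78% for m1403-5p (12 of 177) and 6.02% for m2352-3p (10 of 166). Counted over all 288 loci described as disease resistance, miR482 targets included, m1403-5p had 26 loci (14.7%) and m2352-3p had 20 (12.0%), against a median of 1.42% over the 107 sequences. These sequences were thus listed for resistance loci on both sides of the miR482 boundary, whereas all 7 resistance loci of miR159a and all 6 of m0793-5p lay outside it.

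**Figure D1:**
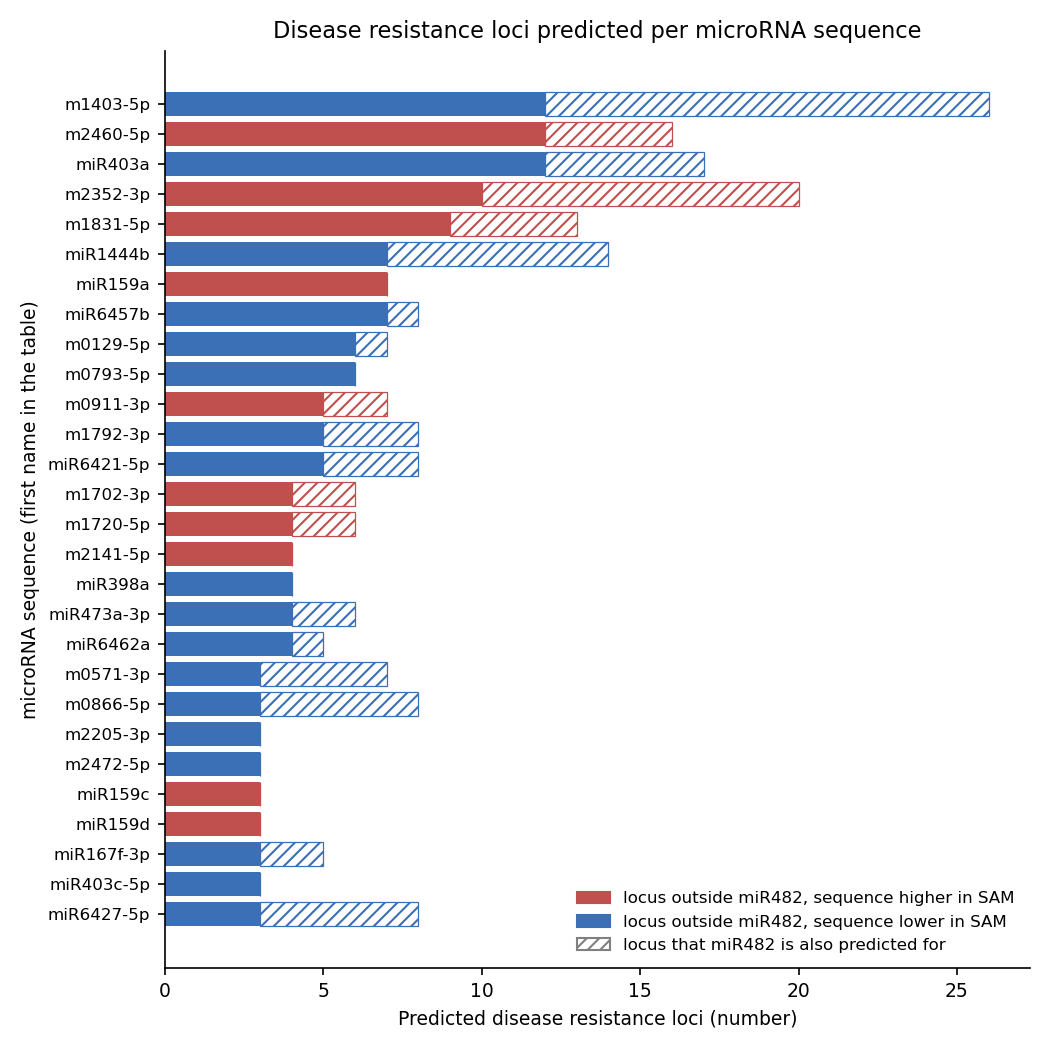
Number of predicted disease resistance loci (x axis) for the 28 sequences with at least 3 loci outside miR482 (y axis); filled bars count loci outside miR482, hatched bars loci that miR482 is also predicted for, red marks sequences higher and blue those lower in shoot tips (SAM). The filled bars of m1403-5p, m2460-5p and miR403a reach 12, and m1403-5p has the longest bar in all, with 26 loci.

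The loci fell into groups by description, and several sequences were concentrated on 1 group. Each description names a Swiss-Prot protein, which is from Arabidopsis for 103 loci, from the wild potato Solanum bulbocastanum for 41 and from pea for 1. In all, 138 loci were named after NLR-type receptors. The other 7 were 6 loci named after ENHANCED DISEASE RESISTANCE 2, which in Arabidopsis holds back cell death and mildew resistance, and 1 named after the pea disease resistance response protein 206, a dirigent protein. Since the description words chose the loci, these 7 are members although they are not receptors.

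Of the TIR receptors, most were predicted for 1 sequence. The group held 12 loci, named after RPS4 and RPS6, which in Arabidopsis recognise bacterial effectors, and after At4g11170. M1831-5p, 24 nt long, was predicted for 8 of the 12, and 7 of its 9 loci in any group have identifiers beginning with POPTR_0019. They include POPTR_0019s12570, POPTR_0019s12720, POPTR_0019s12750 and POPTR_0019s12780, all named after RPS6. The authors' deposited table gave m1831-5p a value of 10.1 in shoot tips and listed it at 0 in leaves, with an FDR of 0.0445. M1702-3p had the same values, 10.1 and 0, in the authors' deposited table. Of the 12 loci, 8 were predicted only for sequences higher in shoot tips, 3 only for lower ones and 1 for both. The shares over all loci were 33%, 55.9% and 11.1%. Most of the TIR loci only with higher sequences were loci of m1831-5p, so the count largely repeats 1 sequence of low value. Of the 16 TIR-type loci described as disease resistance, 4 were miR482 targets, against 143 of all 288 resistance loci.

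The receptors named after RGA1 to RGA4 of wild potato, among which RGA2 confers resistance to late blight, were the largest group, with 41 loci and 31 sequences. M2352-3p was predicted for 10 of them, and it had no member in any other group. The authors' deposited table gave it 10.1 in shoot tips and listed it at 0 in leaves, with an FDR of 0.0358. M0129-5p was predicted for 4 RGA loci and for 2 loci of ENHANCED DISEASE RESISTANCE 2; the authors' deposited table listed it at 0 in shoot tips and 15.7 in leaves, with an FDR of 0.00515. Thus the sequences with most RGA loci lay in opposite directions. Over the group, 20 of the 41 loci were predicted only for higher sequences, 17 only for lower ones and 4 for both. Among all predicted loci the shares were 33%, 55.9% and 11.1%. In the RGA group, 21 of the 31 sequences had a single locus.

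The group named after At4g27220 and At4g27190, Arabidopsis loci of the coiled-coil kind, held 34 loci, while 59 further loci with these descriptions were miR482 targets. Over all 288 resistance loci, 143 were miR482 targets. MiR403a, whose family is known in Arabidopsis for an Argonaute gene, was predicted for 10 of the 34. Its 4 names ranged from 195 to 201 in shoot tips and from 467 to 490.3 in leaves, with log2 fold changes of -1.28 to -1.25 and FDR values of 0.0199 to 0.0235 per the authors' deposited table, a direction that turns with the scaling described later. M2460-5p, 24 nt long, was predicted for 7, and the authors' deposited table listed it at 10.8 in shoot tips and 0 in leaves, with an FDR of 0.0298. M1403-5p was predicted for 6 and, outside this group, for 5 loci named after RPS2 and its relatives. The authors' deposited table gave it 9.73 in shoot tips against 39.3 in leaves, a log2 fold change of -1.97, with an FDR of 0.0493, the largest listed, and this direction turns with the same scaling. MiR1444b, of a poplar family known for polyphenol oxidases, was predicted for 5, and all 7 of its resistance loci outside miR482 have identifiers beginning with POPTR_0001. Per the authors' deposited table its value was 139.6 in shoot tips against 13289 in leaves, a log2 fold change of -6.54 with an FDR of 7.26e-64. All 20 bases of miR1444b are complementary to the listed miR1444d, and the sources used here do not say if strand was used in counting, so this value is uncertain. Of the 34 loci, 8 were predicted only for higher sequences, 21 only for lower ones and 5 for both, where the shares over all loci were 33%, 55.9% and 11.1%. With that scaling the counts were 18, 7 and 9, while with values taken as reads per 1000000 they stayed at 8, 21 and 5. The majority of lower sequences in this group thus depends on which total is used.

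The 15 loci named after RPS2, which guards another protein against bacterial effectors in Arabidopsis, and after RFL1 and like Arabidopsis loci were predicted for 11 sequences. M1403-5p led with 5 of them and m2460-5p followed with 3, so the same numbered sequences recurred here. Loci of this group divided into 5 only with higher, 8 only with lower and 2 with both kinds of sequence, and into 9, 2 and 4 with the scaling described later. All predicted loci divided into 33%, 55.9% and 11.1%, and into 44.6%, 42.9% and 12.5% with that scaling.

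The 15 loci named after RPP13-like proteins, relatives of an Arabidopsis receptor against downy mildew, were led by m0911-3p, with 5 loci, and miR159a, with 4. All 5 loci of m0911-3p begin with POPTR_0003, from POPTR_0003s19850 to POPTR_0003s19950, and 3 of them were also predicted for miR159a (60.0% of the 5 and 42.9% of the 7 loci of miR159a). The authors' deposited table listed m0911-3p at 12.1 in shoot tips and 0 in leaves, with an FDR of 0.0211. MiR159a, known for MYB factors of the GAMYB type, shares its sequence with miR159b. The authors' deposited table gave these names 317047 and 317060 in shoot tips against 90908 and 90918 in leaves, a log2 change of 1.80 with an FDR of 8.26e-08. MiR159d, which shares its seed, was predicted for 3 resistance loci, all of them also loci of miR159a. At 3 RPP13-like loci the prediction thus paired m0911-3p, a sequence of low value, with miR159a, one of the most abundant.

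Of the 11 loci named after RPM1, an Arabidopsis receptor that guards the protein RIN4, 10 were predicted only for sequences lower in shoot tips, where the share over all loci was 55.9%, and 1 only for a higher one. With the scaling described later the counts were 8 and 1, and 2 loci had both kinds. They had 12 sequences, of which 10 had a single RPM1 locus. M1792-3p had 3, and the authors' deposited table listed it at 0 in shoot tips and 9.28 in leaves, with an FDR of 0.0335. The remaining sequences of this group included miR408-3p, known for copper proteins, for which the authors' deposited table gave 123 against 10242, a log2 fold change of -6.34.

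The 5 loci of the RPW8 type, named after the helper receptors At5g66900 and At4g33300, were all those of this type among the 288 resistance loci. No locus of the type was thus a miR482 target, against 143 of the 288. Of the 5, 3 were predicted for m0793-5p, which had 30.05 in leaves and 0 in shoot tips per the authors' deposited table, with an FDR of 0.000103. POPTR_0007s11500 and POPTR_0007s11510 were each predicted for m0793-5p and for miR403c-5p, the arm opposite to that of miR403a, for which the authors' deposited table gave 350.4 in shoot tips against 1104 in leaves, a log2 fold change of -1.65 that turns with the scaling described later. The locus named after At4g33300 was predicted only for miR390a, of a family known for starting small RNAs against auxin response factors. Its 4 names ranged from 649.9 to 650.4 in shoot tips and from 144 to 145 in leaves in the authors' deposited table. With the values as deposited this was thus the only locus of the 5 with a sequence higher in shoot tips. With the scaling 2 of the other 4 had both kinds. In the whole table, 33% of loci had only higher sequences and 55.9% only lower ones.

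The 6 loci of ENHANCED DISEASE RESISTANCE 2 were likewise all those so named among the 288 resistance loci, so none so named was a miR482 target. MiR6421-5p, a poplar microRNA, was predicted for 3 of the 6. The authors' deposited table gave this sequence 1.74 in shoot tips against 62.3 in leaves, a log2 fold change of -4.99 with an FDR of 7.71e-07. M1720-5p was predicted for 2, and the authors' deposited table listed it at 18.0 in shoot tips and 0 in leaves, with an FDR of 0.00415. The locus named after response protein 206 was predicted for miR399f alone, of the phosphate-linked miR399 family, whose 2 names ranged from 6.97 to 7.45 in shoot tips and from 120.0 to 126 in leaves per the authors' deposited table. MiR6457b, the last of the 13 leading sequences, spread its 7 loci over 3 groups and had 28.2 in shoot tips against 608 in leaves, a log2 fold change of -4.40 with an FDR of 1.04e-28 per the authors' deposited table.

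**Figure D2:**
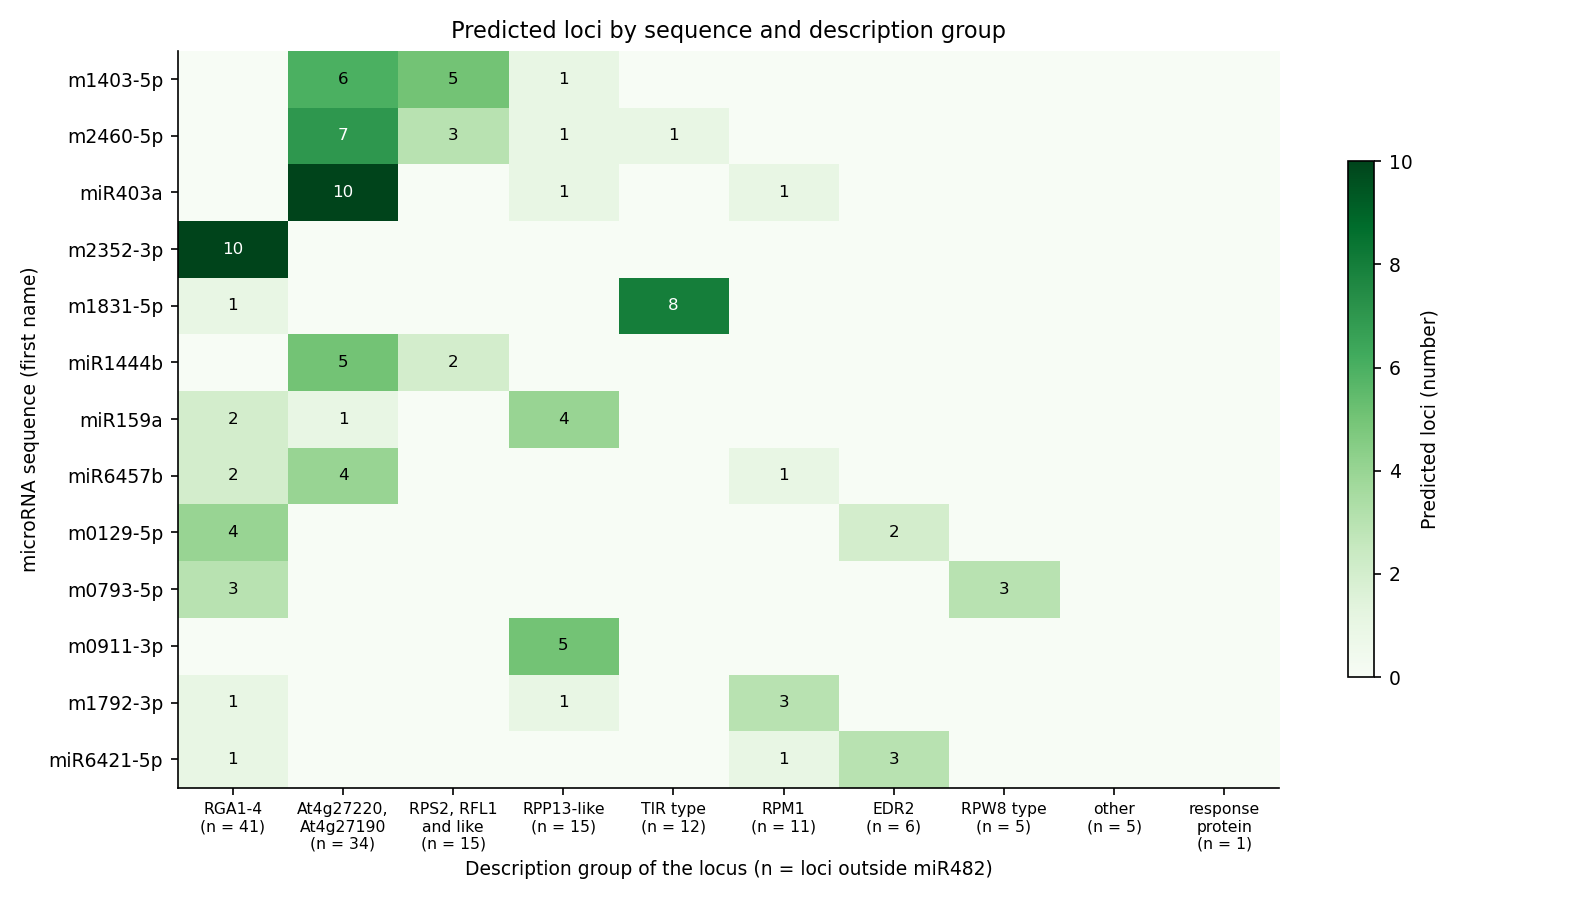
Number of predicted loci outside miR482 for each of the 13 leading sequences (rows) in each description group (columns, with the number of loci), with darker green for more loci. Most loci of m2352-3p lie under RGA1 to RGA4 (10), of m1831-5p under the TIR type (8) and of miR403a under At4g27220 and At4g27190 (10).

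By tissue, the microRNAs behind these loci were divided much as the table as a whole, of which they are the larger part. All 126 names behind the 145 loci had an FDR below 0.05, as had 100% of those in the authors' deposited table, since only such names were listed. Of the 126 names, 81 were lower in shoot tips (64.3%, against 62.2% of all 193 names) and 45 were higher (35.7%, against 37.8%). Counted by sequence, 46 of the 75 were lower in shoot tips (61.3%, against 57.9% of all 107 sequences) and 29 were higher (38.7%, against 42.1%). Of the 145 loci, 78 were predicted only for lower sequences (53.8%, against 55.9% of all 10305 loci), 49 only for higher ones (33.8%, against 33%) and 18 for both (12.4%, against 11.1%). These shares lie near those of the whole table, but they depend on which microRNAs are counted. With an FDR below 0.01, 83 loci had a sequence left. Of these, 17 had only higher ones (20.5%, against 27.6% of all loci so counted) and 56 only lower ones (67.5%, against 65.7%). The other 10 had both (12.0%, against 6.77%). With known families alone, 75 loci were left, 11 of them only with higher sequences (14.7%, against 33.1%) and 57 only with lower ones (76.0%, against 60.9%). The remaining 7 had both (9.33%, against 6.05%). The count of 49 therefore rests largely on numbered sequences with weak FDR values.

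The values behind the loci spanned a wide range, and low ones were common. Of the 75 sequences, 10 reached 1000 in at least 1 tissue and 46 stayed under 100 in both. For 80 of the 145 loci (55.2%) every predicted sequence stayed under 100 in both tissues, against 47.9% of all loci. For 21 loci (14.5%) at least 1 sequence reached 1000, against 21.6% of all loci; removing the loci of miR482, an abundant family, is part of how the loci were chosen. Of the 75 sequences, the authors' deposited table listed 14 at 0 in shoot tips and 15 at 0 in leaves, against 18 and 19 of all 107. The median log2 fold change of the 46 sequences above 0 in both tissues was -2.32, against -1.68 for the 70 such sequences in the table, which include the 46. The scaling described later raises both medians by 2.57, so their sign depends on the total.

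The most leaf-biased sequence above 0 in both tissues was miR398b, of a family known for copper/zinc superoxide dismutases, which was predicted for 2 of the loci. Its 2 names had 77.4 in shoot tips against 19224 and 19229 in leaves, a log2 change of -7.93 with an FDR of 1.05e-115 per the authors' deposited table. MiR397a, known for laccases, was predicted for 2 loci as well, and the authors' deposited table listed it at 0 in shoot tips and 51.1 in leaves, with an FDR of 3.34e-06. M0130-5p, which is m0129-5p moved by 1 base, was predicted for 1 locus, and the authors' deposited table listed it at 0 in shoot tips and 36.0 in leaves, with an FDR of 4.06e-05, while m0129-5p had 15.7 in leaves. Among the sequences higher in shoot tips, m1147-5p stood at 16.6 (FDR 0.00633) and m0862-3p at 16.4 (FDR 0.00606), both at 0 in leaves, in the authors' deposited table. Of the 75 sequences, 24 had several names, and for 15 of them the values differed between names; how reads that match several names or near-identical sequences were assigned is not known, so such values are uncertain. The authors' fitted fold changes against a value of 0 set no bound and are not given.

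**Figure D3:**
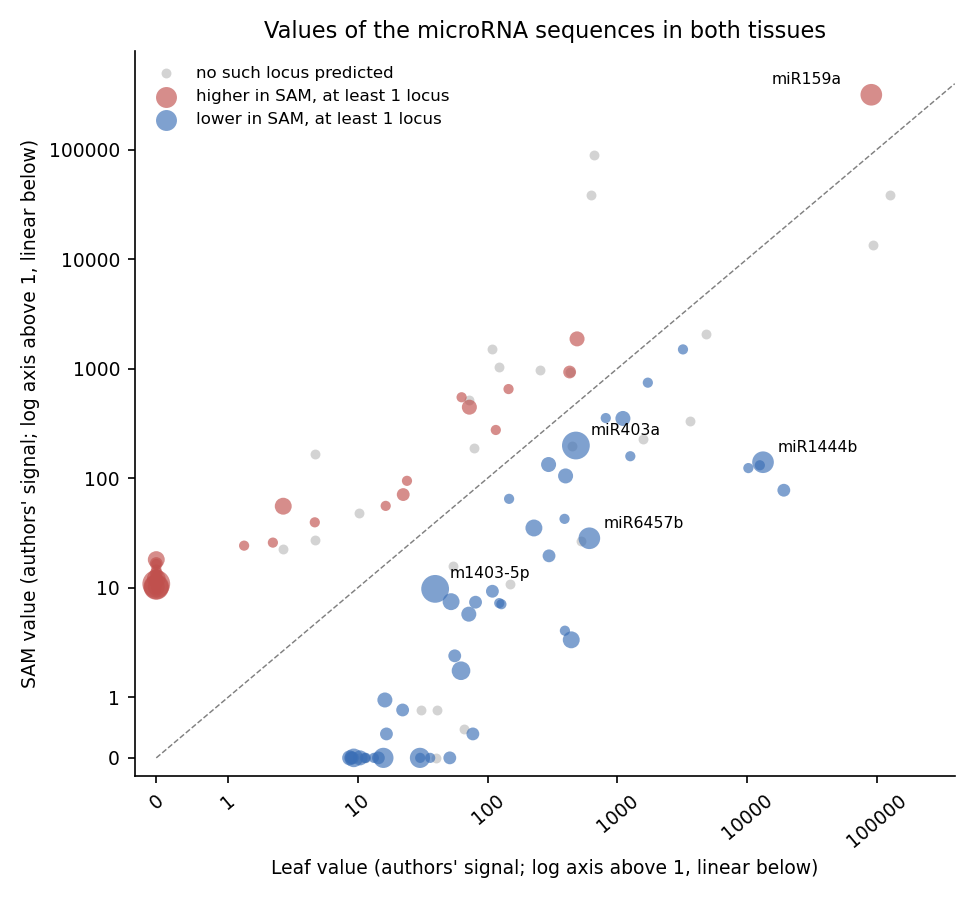
Value of each sequence in leaves (x axis) and shoot tips (y axis), as the authors' signal averaged over names of 1 sequence, on axes that are logarithmic above 1 and linear below; red and blue points are the 75 sequences with a locus outside miR482, larger for more loci, grey points the other 32, and the dashed line marks equal values. MiR159a stands alone at the top right, and most large red points lie at 0 in leaves and near 10 in shoot tips.

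The direction of the small differences depends on the total to which values are scaled. MiR159 and miR319 dominate the listed values of shoot tips. Taking their sequences out of the listed total raises every log2 fold change by 2.57, and 9 of the 46 lower sequences then turn to higher, miR403a (1.29) and m1403-5p (0.60) among them. The listed values are only those of microRNAs called different, so their total is not a library's depth. With the values taken as reads per 1000000 the same step gives a shift of 0.72. None of the 46 then turns, although miR403a comes to -0.56, less than 2-fold. None of the 62 lower sequences in the table turns either, so the counts of loci by direction, also by group, stay as deposited. With the 9 counted as higher, 67 of the 145 loci had only higher sequences (46.2%, against 44.6% of all loci), 51 only lower ones (35.2%, against 42.9%) and 27 both (18.6%, against 12.5%).

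Many of the loci had a sequence of 24 nt. Of the 75 sequences, 20 were 24 nt long (26.7%, against 26.2% of all 107), and 17 of these were higher in shoot tips. Among all 107 sequences 28 had this length, of which 23 were higher. Of the 145 loci, 51 were predicted for at least 1 sequence of 24 nt (35.2%, against 23.8% of all loci). Among the 143 resistance loci of miR482 the share was 11.2%. Each of these is listed through miR482, of 22 nt, and 61 have no further sequence. Their share therefore cannot be set against the 35.2%. No test was made of the difference from all loci, since loci that share a sequence are not independent. The 17 ranged from 9.88 to 55.3 in shoot tips and 14 of them were listed at 0 in leaves in the authors' deposited table. In plants, small RNAs of this length mostly direct DNA methylation rather than cleavage, and the table does not say how they were told from microRNAs. Sequences of 22 nt numbered 7, of which 5 were lower in shoot tips. Among all 107 sequences 13 had this length, of which 9 were lower. Of the 145 loci, 13 (8.97%) were predicted for a sequence of 22 nt, against 15% of all loci. All loci include those of miR482, itself of 22 nt. Of the 7 sequences, miR473a-3p led with 4 loci and miR6427-5p followed with 3. They stood at 35.0 and 133 in shoot tips and 227 and 295 in leaves in the authors' deposited table. Both were lower in shoot tips, miR473a-3p by the larger factor, and miR6427-5p turns to higher with the scaling described above.

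Most loci had a single predicted sequence. There were 99 loci with 1 sequence, 26 with 2, 14 with 3, 5 with 4 and 1 with 6, a mean of 1.51 per locus and 219 pairs of locus and sequence in all. The share with 1 sequence was 68.3%, against 74.2% of all 10305 loci. Among the 143 resistance loci of miR482, 82 (57.3%) had at least 1 further sequence and 61 had miR482 alone; of the 82, 53 had 1 further sequence (64.6%). Every locus outside miR482 has at least 1 sequence by construction, because only loci with a prediction are listed, so the share with a further sequence cannot be set against it.

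**Figure D4:**
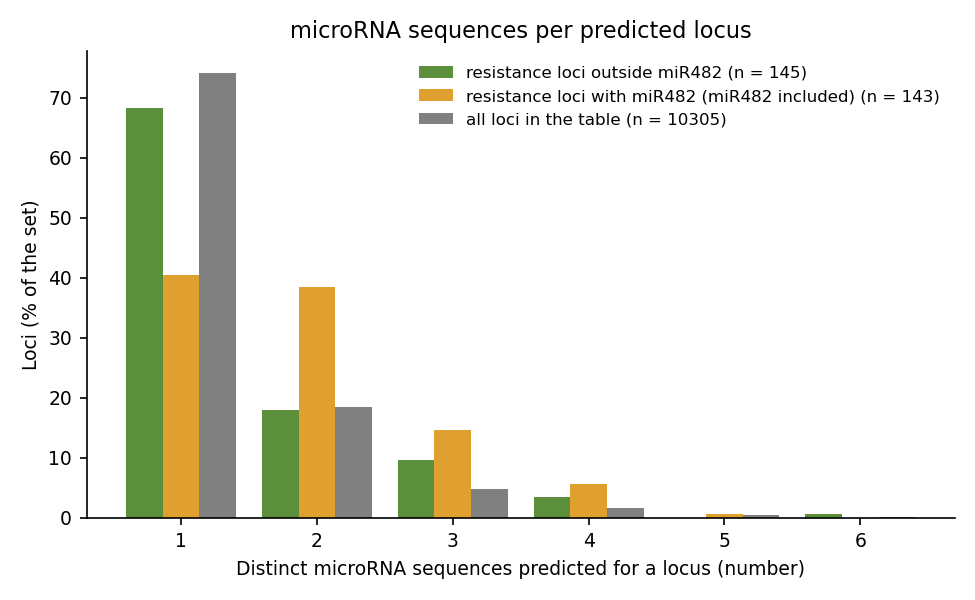
Share of loci in percent (y axis) by the number of distinct microRNA sequences predicted for them (x axis), for the 145 resistance loci outside miR482 (green), the 143 with miR482, counted with it (yellow), and all 10305 loci (grey). Green and grey bars stand at 68.3% and 74.2% for 1 sequence, and the only green bar beyond 4 is the 1 locus with 6.

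The locus with most sequences was POPTR_0019s05300, named after At4g27190, with 4 higher and 2 lower sequences. These were miR159a, miR159d, m0862-3p and m2441-5p on the higher side and miR396f and miR396g-5p, which differ at 1 base, on the lower side, and both of the latter turn to higher with the scaling. POPTR_0001s17210, POPTR_0003s19950 and POPTR_0017s03100 had 4 sequences each, 2 in either direction. POPTR_0005s14320, named after RGA4, had 3 lower sequences and miR159a. POPTR_0001s47820, named after At4g27220, had 4 sequences that were all lower, namely m1403-5p, miR6427-5p, miR403a and miR1444b, of which 3, all but miR1444b, turn to higher with the scaling. Of the loci with 3 sequences, POPTR_0001s01510, named after ENHANCED DISEASE RESISTANCE 2, had 1 higher and 2 lower, and POPTR_0001s42540, named after At4g27190, had 3 lower, of which 1 turns. Of the 18 loci with sequences in both directions, 5 belonged to the group of At4g27220 and At4g27190, 4 to RGA1 to RGA4 and 3 to the RPP13-like group, while the RPM1 and RPW8 groups had none with the values as deposited and 2 each with the scaling. Identifiers began with 32 different prefixes, led by POPTR_0001 with 23 loci, POPTR_0019 with 17 and POPTR_0017 with 16.

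Other genes of plant immunity in the table were fewer and were not tied to 1 direction as a whole. Beside the counts of this paragraph stand shares over all loci of 55.9% only with lower sequences, 33% only with higher ones and 11.1% with both. With the scaling described above these shares were 42.9%, 44.6% and 12.5%. Values taken as reads per 1000000 changed none of the counts. Of 5 loci named after NPR1 and NPR3, receptors of the defence hormone salicylic acid, all 5 were predicted only for sequences lower in shoot tips, m0793-5p among them with 2 loci. The chaperone partners SGT1 and RAR1, which keep NLR receptors stable, had 1 locus each, also predicted only for lower sequences. The lipase-like PAD4, a signalling partner of TIR receptors, had 1 locus, predicted for miR408-3p, and no locus was described as EDS1 or as heat shock protein 90 or 83. RPM1-interacting protein 4, the protein that RPM1 guards, had 1 locus, predicted for m2221-5p, which had 22.5 in shoot tips and 2.65 in leaves in the authors' deposited table. Of 37 loci described as WRKY transcription factors, a family that acts in defence among other roles, 16 were predicted only for higher sequences. A further 18 were predicted only for lower ones and 3 for both kinds, and with the scaling these counts were 20, 14 and 3. Of 5 loci with pathogenesis-related descriptions, most of them named after transcription regulators, 3 had only higher and 2 only lower sequences; with the scaling 4 had only higher ones and 1 had both. Of 9 MLO-like loci, whose founding member in barley is needed for mildew infection, 4 had only higher, 4 only lower and 1 both, against 5, 1 and 3 with the scaling. The surface receptors FLS2, EFR and BAK1 had 5 loci, 1 only with higher, 3 only with lower sequences and 1 with both, which became 3, 2 and 0 with the scaling, and the BAK1 locus was a target of miR482. All these counts describe the prediction alone, since no transcript was measured.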

How the data were processed

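Illumina libraries were made from total RNA of both tissues, per the labels' protocols. How reads were aligned, microRNAs called, targets predicted and tissues tested, and on which genome build, is not given in the sources used here. In the authors' deposited table each microRNA has 1 signal per tissue, a normalized abundance of unstated scale formed from 2 libraries, the log2 of its change from leaves to shoot tips, and the FDR, a p-value adjusted for many tests. Its 27252 lines held 1215 repeats, which were dropped. Sequences were compared with T read as U. Of the 145 loci, 0 were found in the reference gene table, so descriptions were taken from the deposited table. The planned count model needed values per library and was not run; no test was added. The members and lists were chosen with earlier results of these data known, and the description groups after the descriptions were seen. Named sequences were those with at least 5 loci, the 3 highest values and, in each direction, the 3 with the largest log2 change among those with a value of at least 5, which made 19; named loci were the 8 with most sequences, ties by identifier, and those with both directions, the latter given by counts. Other microRNAs and loci were chosen after their values were seen. Alternatives are given in the closing section. Counting was tested on simulated data. Python 3.11.15 and pandas 2.3.3 were used.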

Additional observations from a re-analysis of the deposited data

How the results depend on the processing

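Without the exclusion of miR482 there were 288 loci in place of 145; excluding by sequence left 145, and broader words ("resistance protein"), which also took in drug resistance transporters, gave 206. With an FDR below 0.01 the loci only with higher sequences numbered 17, those only with lower ones 56 and those with both 10, against 49, 78 and 18; with known names alone they numbered 11, 57 and 7. Fewer microRNAs are counted in each case by construction. By name, 45 microRNAs were higher and 81 lower; counted by sequence there were 29 and 46, and among known families 26 and 45 names. A value of at least 5 changed no count. Loci with a single microRNA were 67 by name and 99 by sequence. With miR159 and miR319 out of the listed total, 17 of the 19 named sequences kept a difference of 2-fold or more in their direction, and miR403a (1.29) and m1403-5p (0.60) reversed by the shift itself; the loci only with lower sequences fell from 78 to 51, those only with higher ones numbered 67 and those with both 27. The same step with values taken as reads per 1000000 left 18 of the 19 at 2-fold or more, all but miR403a (-0.56), and none reversed. A pseudocount of 1 reversed none of the 19, which it cannot do by construction. The words "TMV resistance" added alone (186 loci) values taken as reads per 1000000 (no locus count changed) and the locus counts under both totals were chosen after seeing the data. No paired analysis was possible because each tissue has 1 pooled column with no replicate number, and for the same reason leaving out a replicate was not run. What depth limits cannot be stated, since no counts are given.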

Other observations

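The numbered sequence m1831-5p was also predicted for resistance loci outside the words used above. Of 53 loci described as TMV resistance protein N, a TIR receptor of tobacco against a virus, it was predicted for 10, more than any other sequence in the table, and miR482d-3p was predicted for 8. Counting TIR-type descriptions together (RPS4, RPS6, At4g11170, TMV resistance protein N and SUPPRESSOR OF npr1-1, CONSTITUTIVE 1), a grouping made after the descriptions were seen, gave 79 loci, or 0.767% of all predicted loci. M1831-5p was predicted for 22 of them, 20.2% of its 109 loci, and miR482d-3p for 15, 9.43% of its 159. The next sequences, m1009-3p and m2205-3p, had 6 each. Of the 53 TMV resistance loci, 12 were predicted only for sequences higher in shoot tips, 32 only for lower ones and 9 for both. The shares among all predicted loci were 33%, 55.9% and 11.1%. Of the 53, 12 were miR482 targets, each of which has a lower sequence as deposited because the listed miR482 sequences were lower. With miR159 and miR319 out of the listed total the counts by direction were 25, 17 and 11. Loci of related genes share sequence, so their predictions are not independent, and no test was made.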
